A study of Mus musculus with 12 samples.

Results

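The thin filament of striated muscle was followed here through 10 genes of 26190 in the table, chosen by name: the troponin T genes Tnnt1, Tnnt2 and Tnnt3, the troponin I genes Tnni1 and Tnni3, the troponin C genes Tnnc1 and Tnnc2, tropomyosin 1 (Tpm1) and the striated muscle actins Actc1 and Acta1. All 10 had a row. In GRCm38 the troponin T genes lie at chr7:4504570-4515975 (Tnnt1, minus strand), chr1:135836334-135852268 (Tnnt2, plus) and chr7:142498836-142516009 (Tnnt3, plus). The other troponin genes lie at chr1:135799421-135810989 (Tnni1, plus), chr7:4518305-4522528 (Tnni3, minus), chr14:31208312-31211729 (Tnnc1, plus) and chr2:164777162-164779734 (Tnnc2, minus). Tpm1 lies at chr9:67022593-67049213, Actc1 at chr2:114047284-114052875 and Acta1 at chr8:123891758-123894775, all on the minus strand. RNA came from 12 libraries in 4 groups of 3. The study describes the dissected HOs as biological triplicates and does not say so of the hearts. The hearts of E11.5 embryos (E11.5H) were dissected into atria and ventricles. Heart organoids (HOs) were cut after 13 days of culture into parts that the study calls atrium-like and ventricle-like. The strain label was C57BL/6 in every group, and no group carried a mutation. HOs were grown from wild-type embryonic stem cells of 3 lines, of C57BL/6 or of C57BL/6 × JF1 F1 origin, as embryoid bodies placed on a laminin-entactin gel with FGF4, with BMP4, BIO and LIF added late in culture, and so all HO libraries share those agents. Which line gave which library, whether embryos were pooled, and whether the parts with 1 number came from 1 HO are not stated in the sources used here.

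In striated muscle the thin filament is a helical strand of actin with tropomyosin lying along it and a troponin complex at regular intervals. Troponin C binds calcium, troponin I holds the filament off in its absence, and troponin T ties both to tropomyosin, so that myosin can bind actin after calcium is released. Each subunit comes from several genes named for cardiac, slow skeletal or fast skeletal muscle, and the embryonic heart is known to use some skeletal isoforms, such as slow troponin I from Tnni1 and skeletal actin from Acta1, along with the cardiac ones.

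The proximal promoters of 4 members, both actins, cardiac troponin T and cardiac troponin C, are shown first, since the results below turn on the balance of the actins and on the cardiac isoforms. They are the 150 bases before the start site in the RefSeq table for GRCm38.p6, 5′ to 3′ along the gene, with CArG boxes, TATAAA and CATTCC (the M-CAT core, on either strand) in capitals. Actc1 and Acta1 are the pair of actins, Tnnt2 encodes cardiac troponin T and Tnnc1 cardiac and slow troponin C.
Actc1 (chr2:114052876-114053025, minus strand): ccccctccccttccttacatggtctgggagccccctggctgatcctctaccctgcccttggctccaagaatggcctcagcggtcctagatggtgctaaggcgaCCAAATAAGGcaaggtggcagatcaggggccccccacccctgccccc
Acta1 (chr8:123894776-123894925, minus strand): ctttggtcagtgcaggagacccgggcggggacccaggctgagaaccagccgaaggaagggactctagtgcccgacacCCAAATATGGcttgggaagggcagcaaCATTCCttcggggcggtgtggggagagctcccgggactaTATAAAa
Tnnt2 (chr1:135836184-135836333, plus strand): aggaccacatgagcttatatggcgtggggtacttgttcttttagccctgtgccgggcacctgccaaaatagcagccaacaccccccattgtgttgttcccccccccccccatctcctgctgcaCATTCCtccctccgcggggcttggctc
Tnnc1 (chr14:31208162-31208311, plus strand): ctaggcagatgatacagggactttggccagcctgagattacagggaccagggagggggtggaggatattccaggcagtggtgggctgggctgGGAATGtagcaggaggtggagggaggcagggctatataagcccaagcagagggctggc
Of the 10 members 9 had a promoter in that table and Tnnt3 did not. Within 250 bases before the start and on both strands, a CArG box, the motif of serum response factor, was found for 2 of the 9, Actc1 at positions -47 to -38 and Acta1 at -73 to -64, and for 1.47% of all 32851 promoters of the same length. CATTCC was found for 4 of the 9 (Acta1, Tnnc1, Tnnt2 and Tpm1), and for 12.6% of all. TATAAA was found for 2 of the 9 (12.4% of all), CANNTG, the E-box, for 8 of the 9 (66.2% of all), AGATAA for 1 of the 9 (9.99% of all) and the MEF2 motif for 0 of the 9 (2.92% of all). None of these matches overlapped another motif. The 32851 promoters leave out those of 1 chromosome, which holds no member. Tnnt2 and Tnni1 had more than 1 promoter in the table, which gave them more sequence to match, and a match is a description of letters and not of binding.

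The actins are near-copies, and their fragments could be split wrongly in counting. The 1134 coding bases of Actc1 and Acta1 in GENCODE M21 (GRCm38) were 86.2% identical, with 157 differing bases and no identical run longer than 29 bases. The smooth muscle actin Acta2 was 85.4% identical to Acta1 and 82.5% to Actc1. The first 120 coding bases, with the 19 that differ in capitals, show how densely the differences lie.
Actc1 (chr2:114051912-114052031, minus strand): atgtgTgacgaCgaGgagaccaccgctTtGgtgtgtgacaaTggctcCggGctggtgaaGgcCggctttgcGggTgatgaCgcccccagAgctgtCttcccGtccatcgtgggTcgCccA
Acta1 (chr8:123893578-123893697, minus strand): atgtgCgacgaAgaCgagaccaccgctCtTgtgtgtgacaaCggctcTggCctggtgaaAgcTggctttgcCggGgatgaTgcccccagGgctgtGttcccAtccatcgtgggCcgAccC
The deposited fragment numbers of Actc1 were not whole in 10 of 12 libraries and those of Acta1 in 9 of 12, and how the authors' counting divided fragments that fit several genes is not given in the sources used here.

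Per library 23971258 to 30540993 fragments were assigned to genes. Levels are given as FPKM as deposited, which divides the fragments of a gene by its length and by the depth of the library. Differences come from edgeR's quasi-likelihood test on fragment numbers with TMM scaling, which sets libraries level over most genes. A gene was called at a Benjamini-Hochberg adjusted p under 0.05 over all genes tested and an absolute log2 fold change over 1. Cardiomyocyte identity was checked with 12 other cardiomyocyte genes, all detected in every group. Their summed FPKM was 13166 to 15546 in the atria, 7021 to 7881 in the ventricles, 205 to 683 in the atrium-like parts and 920 to 2720 in the ventricle-like ones. The sum does not rank the E11.5H chambers by cardiomyocyte content. The median log2 fold change of the 12 was -0.26 in atria against ventricles, with 4 positive. Myh6, in the list, had 1328 to 1589 FPKM in atria and 445 to 504 in ventricles. The cardiac transcription factor gene Nkx2-5 was also lower in HOs, with 78.3 to 93.4 FPKM in hearts, 2.34 to 10.1 in the atrium-like parts and 8.11 to 36.1 in the ventricle-like ones. The summed FPKM of 12 hepatocyte and endoderm genes was 1.45 to 5.20 in hearts, 684 to 12576 in the atrium-like parts and 36.7 to 4525 in the ventricle-like ones, and Afp alone reached 3741 FPKM in atrium-like replicate 1. Replicate 2 of each HO part stood apart with 106 and 115 summed FPKM of 15 skeletal muscle genes, against 2.40 to 6.30 in the other 4. In such bulk samples fewer cardiomyocytes and less RNA of a gene per cardiomyocyte cannot be told apart.

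All members together took 1.996 to 2.34% of the fragments in E11.5H, against 0.104 to 0.253% in the atrium-like libraries and 0.313 to 0.611% in the ventricle-like ones, and these ranges do not overlap. In E11.5H the order of mean FPKM was almost the same in both chambers, with Actc1, Tnnc1 and Tnni1 highest and Tnnt1, Tnnt3 and Tnnc2 lowest. Tnni3 and Tnnt2 traded places in that order, and their libraries overlapped in atria. In ventricle-like parts Actc1 was again highest and did not overlap the next gene, Tnni3. In atrium-like parts Acta1, at a mean of 294 FPKM, stood before Actc1, at 252 FPKM, and every pair of neighbours in the order overlapped. The median coefficient of variation of the members over 3 libraries was 8.80% in atria, 3.0% in ventricles, 68.5% in atrium-like and 46.0% in ventricle-like parts, so that differences within HOs rest on a far wider spread.

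**Figure D1:**
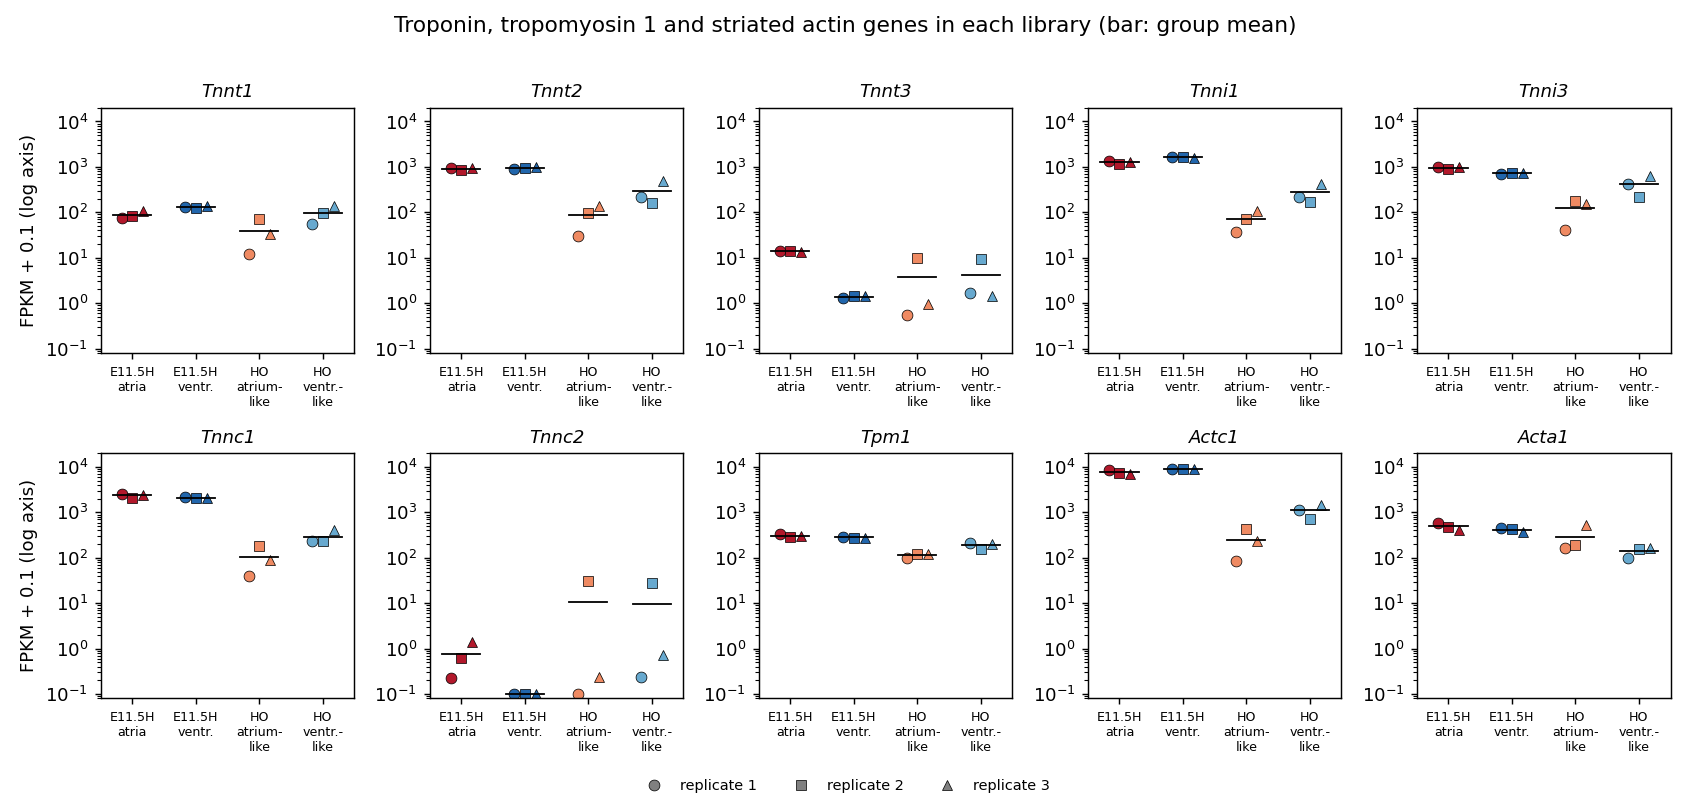
FPKM plus 0.1 on a log axis for each of the 10 member genes, with 1 point per library (shape: replicate number), colour by group and a bar at the group mean. E11.5H libraries sit close together, except for Tnnc2 in atria (0.122 to 1.34 FPKM). HO libraries spread more widely, and least for Tpm1. Tnnt3 and Tnnc2 each have 1 high library per HO part, replicate 2, at 9.96 and 9.32 FPKM for Tnnt3 and 31.3 and 28.5 FPKM for Tnnc2.

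Over the whole table, HOs were compared with hearts chamber by chamber. Between atrium-like parts and atria 6 of the 10 members tested were called, all lower in HOs (Tnnt2, Tnni1, Tnni3, Tnnc1, Tpm1 and Actc1), where 24.8% of the 15418 genes tested were called and 8.81% were called lower. The median log2 fold change was -2.33 over the members and 0.06 over all genes tested. Between ventricle-like parts and ventricles 5 of the 9 members tested were called, all lower in HOs (Tnnt2, Tnni1, Tnnc1, Actc1 and Acta1), against 18.9% of 15094 genes called and 7.35% called lower, and the medians were -1.70 over the members and 0.09 over all. Tnnc2, at 0 fragments in every ventricle library, did not pass the low-count filter there or between the E11.5H chambers. These comparisons share their E11.5H libraries with the comparison of the chambers, and their HO libraries with the comparison of the HO parts.

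Within E11.5H 1 of the 9 members tested, Tnnt3, was called between atria and ventricles, against 4.9% of 14536 genes. Between atrium-like and ventricle-like parts 0 of the 10 members were called by edgeR, as were 0% of the 15703 genes tested, the lowest adjusted p being 0.750. At an unadjusted edgeR p under 0.05 there were 7 members and 889 genes (5.66%), and the DESeq2 Wald test called 0 members and 56 genes (0.357%). In FPKM the atrium-like libraries were all below the ventricle-like ones for 6 of the 10 members (Tnnt2, Tnni1, Tnni3, Tnnc1, Tpm1 and Actc1), against 9.25% of the genes tested, and Acta1 lay above. The interaction of chamber and tissue, which asks whether the chamber difference in HOs departs from that in E11.5H, called 0 members by edgeR against 0.152% of 16494 genes. It had 6 members at an unadjusted p under 0.05, against 11.7% of all genes, and a lowest adjusted p among members of 0.294 (Tnni3), and DESeq2 called 1 member, Tnni3, against 2.69% of all genes. Acta1 alone had a positive value in it (1.12), and the other 9 ran from -6.66 for Tnnc2 to -0.63 for Tnnt1.

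These directions depend on the scaling. When libraries were instead set level on the 12 other cardiomyocyte genes, the median over all genes tested moved to 4.05 (log2) between atrium-like parts and atria and to 2.88 between ventricle-like parts and ventricles. On that scale 4 members were called higher and 0 lower in atrium-like parts (Tnnt1, Tnnc2, Tpm1 and Acta1), in place of 0 higher and 6 lower, and 5 were called higher and 0 lower in ventricle-like parts (Tnnt1, Tnnt3, Tnni3, Tpm1 and Acta1), in place of 0 and 5. Actc1, Tnnc1 and Tnni1 kept negative values on it, from -1.11 for Actc1 to -0.21 for Tnni1 in atrium-like parts and from -0.50 for Actc1 to -0.11 for Tnni1 in ventricle-like parts, and were not called. Of all genes 92.9% were called on that scale in atrium-like parts (92.3% higher) and 90.2% in ventricle-like parts (89.7% higher). The fall of each member below is therefore a fall relative to most genes. Between HO parts the sign turned on that scale for Tnnt1 (0.091), Tnnt3 (0.73), Tnnc1 (0.069) and Tpm1 (1.05), with 0 members called against 8.22% of all genes.

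**Figure D2:**
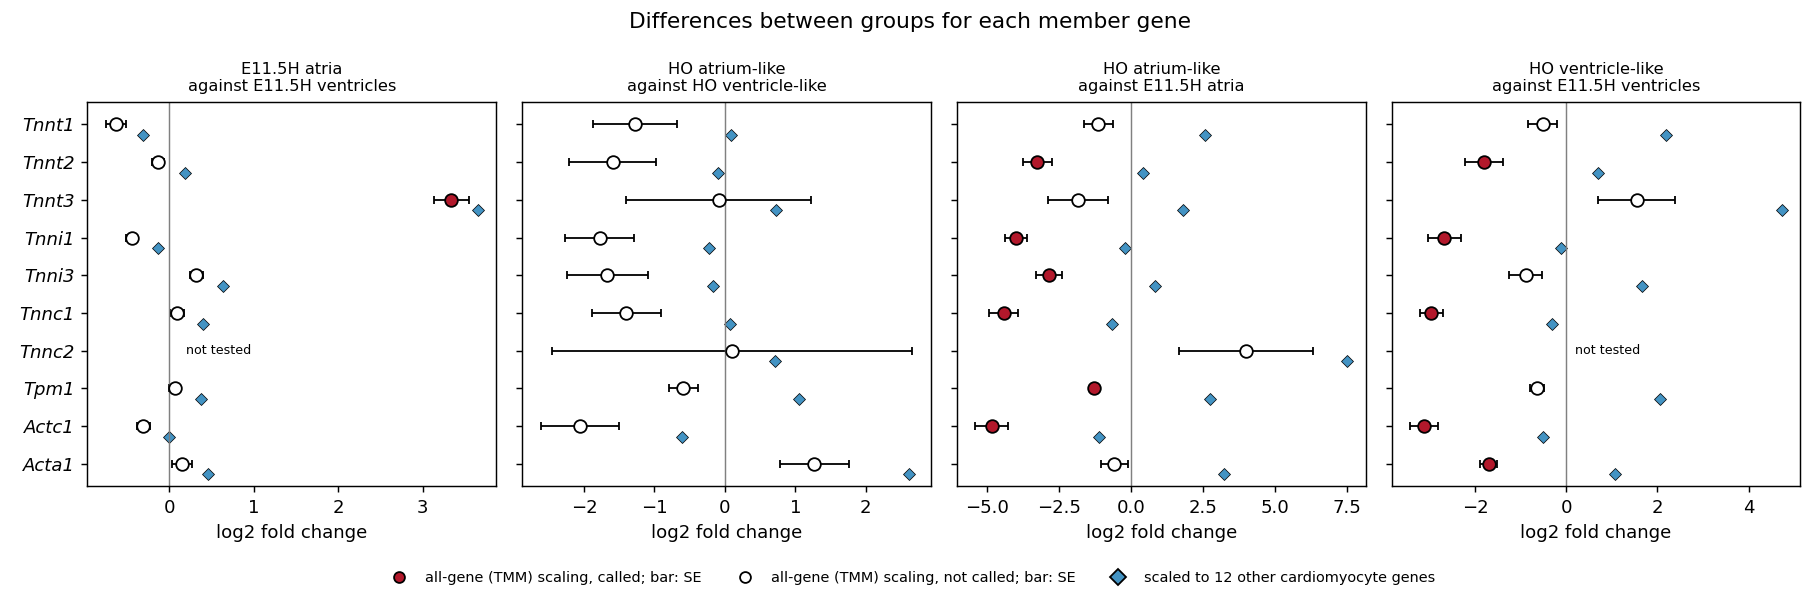
Log2 fold changes of each member gene in 4 comparisons, with circles for the TMM scaling over all genes (bar: standard error; filled: called) and diamonds for libraries set level on 12 other cardiomyocyte genes. The diamonds lie to the right of the circles in all 4 panels, and between HO parts and hearts in both panels they lie above 0 for Tnnt1, Tnnt2, Tnni3, Tpm1 and Acta1 and below 0 for Actc1 (-1.11 and -0.50).

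Of the troponin T genes, Tnnt2, the cardiac isoform and a usual marker of cardiomyocytes, overlapped between the embryonic chambers and fell in both HO parts. It had 951, 842 and 943 FPKM in atria (replicates 1 to 3), 918, 957 and 974 in ventricles, 30.6, 97.2 and 135 in atrium-like and 218, 164 and 486 in ventricle-like parts. The embryonic groups overlapped, while all HO libraries lay below them and the parts did not overlap. The mean was 9.62% of that of atria in atrium-like parts, a log2 fold change of -3.25 ± 0.49 (SE, edgeR adjusted p = 0.00662), and 30.4% of that of ventricles in ventricle-like parts, at -1.81 ± 0.41 (SE, edgeR adjusted p = 0.0231). The ventricular call did not hold without ventricles replicate 1, 2 or 3 or ventricle-like replicate 1, with edgeR adjusted p from 0.0775 to 0.0824. Between the HO parts the log2 fold change was -1.59 ± 0.61 (SE, edgeR adjusted p = 0.750). Relative to the cardiomyocyte genes Tnnt2 had 0.42 in atrium-like and 0.71 in ventricle-like parts, neither called.

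Tnnt1, named for slow skeletal muscle, had 75.1, 84.8 and 105 FPKM in atria and 129.8, 124 and 137 in ventricles of E11.5H. Every atrial library lay below every ventricular one, and the log2 fold change was -0.63 ± 0.12 (SE, edgeR adjusted p = 0.00569), short of the fold limit. In HOs it had 11.8, 69.8 and 32.4 FPKM in atrium-like and 54.2, 97.7 and 141 in ventricle-like parts, and the parts overlapped. Its mean was 43.0% of that of atria and 75.0% of that of ventricles. The log2 fold changes of -1.12 ± 0.52 (SE, edgeR adjusted p = 0.145) and -0.51 ± 0.32 (SE, edgeR adjusted p = 0.268) were not called. Without atrium-like replicate 2, the library with skeletal muscle genes, the atrial value was -1.79 and was called (edgeR adjusted p = 0.0163). Tnnt1 was called higher in both parts relative to the cardiomyocyte genes, at 2.57 and 2.18. The ratio of Tnnt2 to Tnnt1 was 8.96 to 12.7 in atria and 7.07 to 7.73 in ventricles, and 1.39 to 4.17 in the atrium-like parts and 1.68 to 4.02 in the ventricle-like ones, so that every HO library was below every E11.5H library. On the log2 scale the ratio differed by -2.08 ± 0.48 (SE) between atrium-like parts and atria and by -1.36 ± 0.39 (SE) between ventricle-like parts and ventricles (exact permutation tests over libraries, two-sided, n = 3 and 3, p = 0.1 each, adjusted p = 0.133). A p of 0.1 is the smallest that 3 against 3 libraries allow, so that none of the 20 tests made on 5 ratios in 4 pairs of groups could pass.

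Tnnt3, named for fast skeletal muscle, gave the only chamber call among the members. It had 14.3, 13.7 and 12.9 FPKM in atria and 1.17, 1.33 and 1.37 in ventricles of E11.5H, and the chambers lay far apart. The log2 fold change was 3.34 ± 0.21 (SE, edgeR adjusted p = 5.88e-06), and it was called with each library left out in turn but not with all 12 libraries in 1 fit, which takes its spread from the HOs too (3.32, edgeR adjusted p = 0.401). Among the atria the skeletal muscle regulator Myog had 0.649, 1.3 and 7.95 FPKM and Myod1 0.061, 0.817 and 3.42. In ventricles Myog had at most 0.126 FPKM and Myod1 0. The part of skeletal muscle cells in the atrial Tnnt3 level was not tested. In HOs Tnnt3 had 0.436, 9.96 and 0.863 FPKM in atrium-like and 1.55, 9.32 and 1.31 in ventricle-like parts. Both high libraries were replicate 2, and the parts overlapped, with a log2 fold change of -0.09 ± 1.31 (SE, edgeR adjusted p = 0.988). Against atria the atrium-like value was -1.82 ± 1.04 (SE, edgeR adjusted p = 0.224), and without replicate 2 it was -4.14 and called (edgeR adjusted p = 0.00104). Against ventricles the ventricle-like value was 1.55 ± 0.84 (SE, edgeR adjusted p = 0.210) and 0.09 without replicate 2. On the scale of the cardiomyocyte genes Tnnt3 had 1.82 in atrium-like parts, not called, and 4.73 in ventricle-like parts, called. The interaction was -3.36 and not called, and -5.66 without atrium-like replicate 2, where it was called (edgeR adjusted p = 0.0440). The ratio of Tnnt2 to Tnnt3 was 61.4 to 72.9 in atria and 711 to 786 in ventricles, and in HOs it ran from 9.76 to 157 and from 17.6 to 372. Tnnt3 lies on the strand opposite to Prr33, which it overlaps and which had 0 to 3.66 FPKM, and whether the counting used strand is not given in the sources used here.

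Of the troponin I genes, Tnni1, the slow skeletal isoform that the embryonic heart uses before cardiac troponin I replaces it, fell furthest of the troponin T and I genes. It had 1317, 1187 and 1294 FPKM in atria, 1659.7, 1651 and 1605 in ventricles, 37.2, 69.9 and 109 in atrium-like and 221, 173 and 428 in ventricle-like parts. No groups overlapped. Its mean was 5.68% of that of atria in atrium-like parts (log2 fold change -3.99 ± 0.39 SE, edgeR adjusted p = 0.00224) and 16.7% of that of ventricles in ventricle-like parts (-2.67 ± 0.36 SE, edgeR adjusted p = 0.00500). Between E11.5H chambers the log2 fold change was -0.44 ± 0.06 (SE, edgeR adjusted p = 0.00122), short of the fold limit. Between HO parts it was -1.78 ± 0.49 (SE, edgeR adjusted p = 0.750).

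Tnni3, cardiac troponin I, had 1007, 877 and 969.8 FPKM in atria, 715, 715 and 743 in ventricles, 41.6, 174 and 151 in atrium-like and 417, 218 and 615 in ventricle-like parts. Again no groups overlapped, and the embryonic chambers stood in the other order than those of Tnni1, with a log2 fold change of 0.32 ± 0.08 (SE, edgeR adjusted p = 0.0175). That p passed the threshold but the fold did not. The fall in atrium-like parts was called (-2.84 ± 0.46 SE, edgeR adjusted p = 0.00814), at 12.8% of the atrial mean. In ventricle-like parts the mean was 57.5% of that of ventricles and was not called (-0.89 ± 0.36 SE, edgeR adjusted p = 0.114), although without ventricle-like replicate 3 it was (-1.30, edgeR adjusted p = 0.0234). Between HO parts Tnni3 had -1.67 ± 0.57 (SE, edgeR adjusted p = 0.750). The interaction was -1.99 ± 0.63 (SE, edgeR adjusted p = 0.294), while DESeq2 called it at -1.96 (adjusted p = 0.0447). Relative to the cardiomyocyte genes Tnni3 had 0.85 in atrium-like parts, not called, and 1.66 in ventricle-like parts, called.

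The ratio of Tnni3 to Tnni1 separated HOs from hearts in every library. It was 0.739 to 0.764 in atria, 0.431 to 0.463 in ventricles, 1.12 to 2.49 in the atrium-like parts and 1.26 to 1.89 in the ventricle-like ones. Tnni1 was thus the larger in all 6 E11.5H libraries and Tnni3 in all 6 HO libraries. In log2 the ratio rose by 1.06 ± 0.35 (SE) from atria to atrium-like parts and by 1.77 ± 0.18 (SE) from ventricles to ventricle-like parts, and it was 0.76 ± 0.04 (SE) higher in atria than in ventricles (exact permutation tests, two-sided, n = 3 and 3, p = 0.1 and adjusted p = 0.133 for each). Between HO parts it differed by 0.06 ± 0.39 (SE, exact permutation p = 0.9), a smaller difference than its spread. The ratio is taken within each library, so the scaling between libraries leaves it as it is. Tnni1 and Tnnt2 lie 25344 bases apart on chromosome 1 and Tnni3 and Tnnt1 2329 bases apart on chromosome 7.

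**Figure D3:**
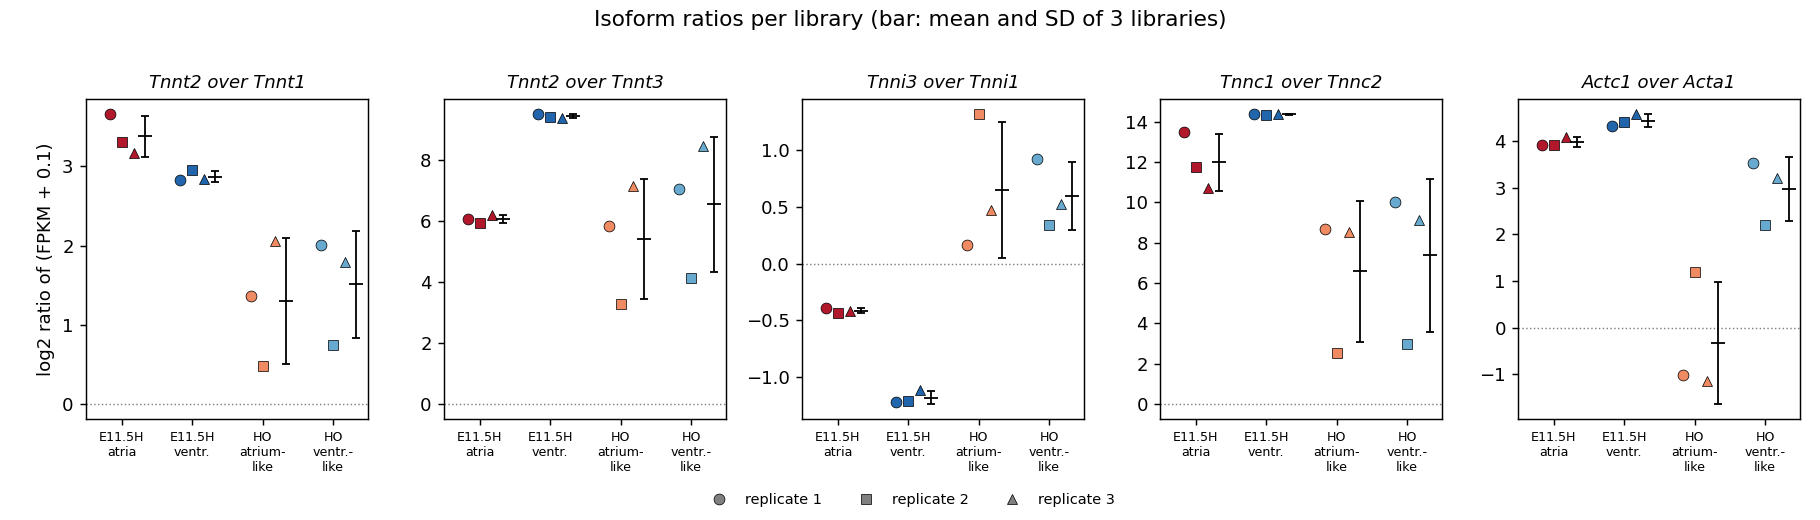
Log2 ratios of FPKM plus 0.1 between isoforms of 1 subunit, with 1 point per library and the mean with its SD (n = 3) for each group. Tnni3 over Tnni1 lies below 0 in all E11.5H and above 0 in all HO libraries, and Actc1 over Acta1 lies below 0 in atrium-like replicates 1 and 3.

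Of the troponin C genes, Tnnc1, the calcium sensor of cardiac and slow muscle, had 2589.5, 2095 and 2414 FPKM in atria and 2150.0, 2071 and 2126 in ventricles, which overlapped (log2 fold change 0.09 ± 0.08 SE, edgeR adjusted p = 0.544). It had 40.4, 182 and 87.7 FPKM in atrium-like and 238, 229.5 and 402 in ventricle-like parts, without overlap. The mean was 4.37% of that of atria and 13.7% of that of ventricles, or 22.9-fold and 7.29-fold lower. Both falls were called, at -4.42 ± 0.50 (SE, edgeR adjusted p = 0.00338) and -2.96 ± 0.25 (SE, edgeR adjusted p = 0.00171). Relative to the cardiomyocyte genes they were -0.65 and -0.32 and not called.

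Tnnc2, troponin C of fast skeletal muscle, was at or near 0 in hearts. It had 0 fragments in all 3 ventricle libraries, and 3, 12 and 30 fragments in atria, or 0.122, 0.515 and 1.34 FPKM. In atrium-like parts it had 0, 733 and 3 fragments and in ventricle-like parts 3, 644.5 and 14. Replicate 2 of each HO part thus held 31.3 and 28.5 FPKM and the other 4 HO libraries at most 0.624 FPKM. Against a floor of 3 fragments per library, the mean in atria was at least 4.74-fold higher than in ventricles, and the mean in ventricle-like parts at least 70.3-fold, or at least 4.496-fold from the median library. The floor covers counting error only. Against atria the atrium-like value was 4.0 ± 2.32 (SE, edgeR adjusted p = 0.230), and -2.97 without replicate 2. In ratio to Tnnc2, Tnnc1 was 5.82 and 8.05 in replicate 2 of the atrium-like and ventricle-like parts, and 645 in ventricle-like replicate 3. In atria replicates 2 and 3 it was 4070 and 1808.

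The same HO libraries carried other skeletal muscle RNA. Myod1, a master regulator of skeletal muscle, had 10.2 and 19.3 FPKM in replicate 2 of the atrium-like and ventricle-like parts and 0 in the other 4, and Myog 29.0 and 30.0 FPKM there and at most 0.0415 in the other 4. Of the 15 skeletal muscle genes 4, Myod1, Myf5, Myf6 and Chrnd, were at 0 in all ventricle libraries. The summed level of all 15 was 18.3 to 32.9 FPKM in atria and 26.7 to 28.2 in ventricles. The part of skeletal muscle cells in the HO values of Tnnt1, Tnni1, Tnnc1, Tpm1 and Acta1, which skeletal muscle also expresses, was not tested. Tnni2, fast skeletal troponin I and no member, behaved otherwise than its partners. It had 44.2, 31.4 and 30.6 FPKM in atria and 27.96, 35.7 and 35.7 in ventricles, well above Tnnc2 there, and 1.45, 21.1 and 2.33 in atrium-like and 13.1, 10.9 and 2.09 in ventricle-like parts, where ventricle-like replicate 1 was high without Myod1. None of its differences was called, the HO values being -2.04 (edgeR adjusted p = 0.143) and -2.02 (edgeR adjusted p = 0.0586).

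**Figure D4:**
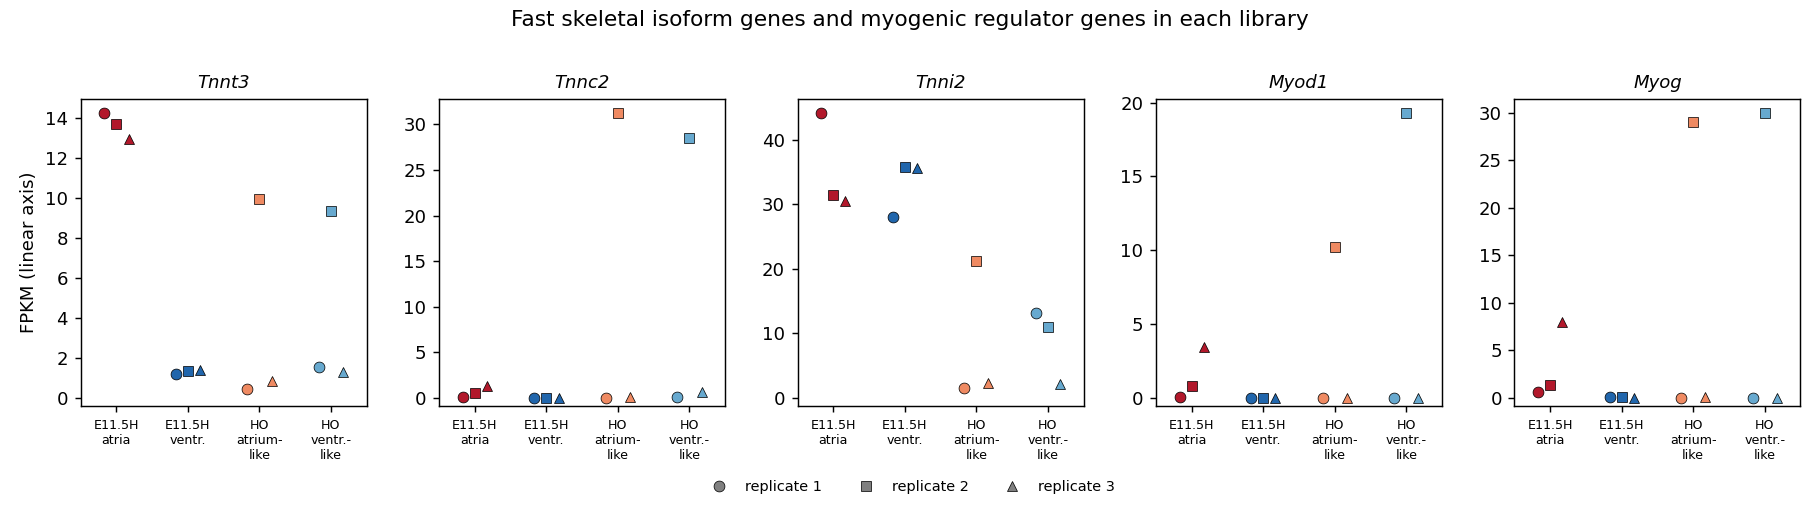
FPKM on a linear axis of Tnnt3, Tnnc2, Tnni2, Myod1 and Myog in each of the 12 libraries. Tnnc2, Myod1 and Myog are high only in replicate 2 of each HO part among the HO libraries, while Tnnt3 is also high in all 3 atria (12.9 to 14.3 FPKM).

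Tpm1, the main tropomyosin of the heart, changed least of the called members and was the most even within HOs. It had 333, 293 and 303 FPKM in atria, 292, 279 and 276 in ventricles, 99.4, 122 and 119 in atrium-like and 217, 154 and 206 in ventricle-like parts. The HO parts lay below the hearts and did not overlap each other. Its mean kept 36.7% of that of atria (log2 fold change -1.28 ± 0.15 SE, edgeR adjusted p = 0.00336) and 68.1% of that of ventricles (-0.64 ± 0.16 SE, edgeR adjusted p = 0.0308). The atrial fall was called and the ventricular one missed the fold limit. Relative to the cardiomyocyte genes it was called higher, at 2.74 and 2.07. Tpm1 also makes isoforms of smooth muscle and other cells, which a value per gene does not separate. Fibroblast and mesenchyme genes, 10 in all, summed to 545 to 4836 FPKM in HOs and 428 to 756 in E11.5H, and their part in the Tpm1 level was not tested.

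Of the actins, Actc1, cardiac alpha-actin, was the highest member in hearts and fell the most. It had 8697, 7425 and 6901 FPKM in atria, 9122, 9092 and 8897 in ventricles, 83.1, 439 and 235 in atrium-like and 1142, 710.5 and 1480.5 in ventricle-like parts. No groups overlapped. The mean in atrium-like parts was 30.4-fold below that of atria (log2 fold change -4.83 ± 0.57 SE, edgeR adjusted p = 0.00360) and in ventricle-like parts 8.13-fold below that of ventricles (-3.11 ± 0.31 SE, edgeR adjusted p = 0.00232). The atrial against ventricular log2 fold change was -0.30 ± 0.08 in E11.5H (SE, edgeR adjusted p = 0.0303), short of the fold limit, and 0.00 relative to the cardiomyocyte genes. Between HO parts it was -2.05 ± 0.56 (SE, edgeR adjusted p = 0.750).

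Acta1, skeletal alpha-actin, was the 1 member that lay higher in atrium-like than in ventricle-like parts in every library. It had 577, 489 and 405 FPKM in atria and 457, 432 and 371 in ventricles, which overlapped (log2 fold change 0.16 ± 0.12 SE, edgeR adjusted p = 0.444). In HOs it had 168, 192 and 523 FPKM in atrium-like and 99.6, 154 and 161 in ventricle-like parts. The high value of replicate 3 overlapped the atria. The atrium-like mean was 60.0% of that of atria and not called (-0.57 ± 0.46 SE, edgeR adjusted p = 0.377), but without replicate 3 it was called lower, at -1.29 (edgeR adjusted p = 0.0220). The ventricle-like mean was 32.8% of that of ventricles and was called (-1.70 ± 0.19 SE, edgeR adjusted p = 0.00324). Relative to the cardiomyocyte genes both were called higher, at 3.23 and 1.07. Between HO parts Acta1 had 1.27 ± 0.49 (SE, edgeR adjusted p = 0.750), and 0.57 without atrium-like replicate 3. Afp had 3741, 78.6 and 1453 FPKM in atrium-like replicates 1 to 3, where Acta1 was lowest in replicate 1. In ventricle-like replicates 1 to 3 Afp had 85.0, 1.88 and 2376 FPKM. Myod1 was at 0 in atrium-like replicates 1 and 3. The part of endoderm cells in the Acta1 level was not tested.

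The balance of the actins lay furthest from that of hearts in atrium-like parts. Actc1 over Acta1 was 15.1 to 17.03 in atria, 19.9 to 24.0 in ventricles, 11.47, 4.62 and 9.21 in ventricle-like and 0.496, 2.28 and 0.450 in atrium-like parts. Actc1 made 93.8 to 96.0% of the summed FPKM of both genes in E11.5H, 92.0, 82.2 and 90.2% in ventricle-like and 33.1, 69.5 and 31.0% in atrium-like parts. In log2 the ratio differed by -4.30 ± 0.76 (SE) between atrium-like parts and atria, by -1.46 ± 0.40 (SE) between ventricle-like parts and ventricles, and by -3.30 ± 0.85 (SE) between the HO parts (exact permutation tests, two-sided, n = 3 and 3, p = 0.1 and adjusted p = 0.133 for each). The groups did not overlap in any of these.

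A list of 28 other genes fixed by name, called thin filament genes here, moved in part with the members. The list also holds genes outside the striated thin filament, such as the cytoplasmic actins Actb and Actg1 and the methyltransferase gene Smyd1, and its medians cover all of them. Between E11.5H chambers 2 of the 27 tested were called higher in atria and 2 lower, with a median log2 fold change of -0.06. Those were smooth muscle actin Actg2 (2.21) and leiomodin Lmod1 (1.77), and Nrap (-1.63), an anchoring protein of forming myofibrils, and leiomodin Lmod3 (-1.05). Between HO parts 0 of the 28 were called by edgeR or DESeq2 (median -0.26), against 0% and 0.357% of all genes. At an unadjusted edgeR p under 0.05 there were 7, against 5.66% of all genes. In atrium-like parts against atria 2 of 27 were called higher and 9 lower (median -0.72), and in ventricle-like parts against ventricles 3 of 28 higher and 10 lower (median -0.45). The largest falls were those of Nebl (-4.65), which encodes nebulette, Smyd1 (-4.47), a muscle methyltransferase, and Xirp1 (-4.17) in atrium-like parts, and of Lmod3 (-5.003), Nrap (-4.13) and Nebl (-3.13) in ventricle-like parts. Actg2 rose in both parts (2.18 and 4.39), as did Actg1 (1.22 and 1.05), a cytoplasmic actin, and Lmod1 rose by 1.31 in ventricle-like parts. The smooth muscle actin Acta2 fell in both (-2.87 and -1.99). The cytoplasmic actin Actb had 0.9995 and 0.72 (edgeR adjusted p = 0.0188 and 0.0229), short of the fold limit, and was not called. Of all genes tested, 4.9% were called between E11.5H chambers, 24.8% in atrium-like parts (8.81% lower) and 18.9% in ventricle-like parts (7.35% lower). Set level on the cardiomyocyte genes, 16 of 27 were called higher in atrium-like parts and 17 of 28 in ventricle-like parts, against 92.3% and 89.7% of all genes, and 0 were lower in either. On that scale Nebl (-0.91 and -0.67), Smyd1 (-0.67 and -0.20) and Xirp1 (-0.47 and -0.23) kept negative values in both parts, and Lmod3 (-1.92) and Nrap (-1.13) in ventricle-like parts, none of them called. The interaction called 0 of the 28 by edgeR and 1 by DESeq2, against 0.152% and 2.69% of all genes. At an unadjusted edgeR p under 0.05 there were 7 in it, against 11.7% of all genes.

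Among 12897 genes with a mean of at least 1 FPKM over the 6 HO libraries, those most like Tnnt2 in log2(FPKM + 0.1) included Pde6d and Pycr1 (Pearson r = 0.995 each) and Pbxip1 and Cox6a2 (0.993 each). Those most like Tnnt3 were Ttc39b (0.995), Zfp58 (0.994), Adcy4 (0.993), Odf2 (0.992) and Nsfl1c (0.991). With 6 points that share cell composition and depth, many genes reach such values, and they are given as a description only.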

How the data were processed

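RNA was sequenced from 12 libraries, 3 in each of 4 groups. The authors deposited, per gene and library, estimated counts, which are fragments assigned to each gene and need not be whole, and FPKM. Per the submitters' notes STAR and mm10 were used; the version and strand setting are not given in the sources used here. Of 314280 count values 74791 were not whole, and they were rounded. Counts were tested by edgeR 4.0.16 (quasi-likelihood, TMM, filterByExpr with a minimum count of 10) in R 4.3.3, with fits limited to the groups compared, and an interaction fit over all 12. A call took an absolute log2 fold change over 1 together with a Benjamini-Hochberg adjusted p below 0.05. The SE of an edgeR log2 fold change was derived from the test, as its absolute value over the square root of the F statistic. Ratios used log2(FPKM + 0.1), on which fold changes of low genes are understated, with exact permutation tests (SciPy 1.17.1). A floor of 3 fragments stood for 0. The fits of pairs of groups, but not the interaction fit, were run on simulated data. There genes varied independently and cell composition did not shift between libraries, so these runs cannot show how the fits behave under such shifts. Replicates differed beyond sampling noise (mean chi-square per gene 15.4 to 476); p-values measure the spread between these samples, and only the HOs are stated to be biological triplicates. Members and gene lists (thin filament, cardiomyocyte, skeletal muscle, smooth muscle, endoderm, endothelium, fibroblast, erythroid) were chosen with earlier results of these data known. Named were all members, Tnni2, the 3 called thin filament genes with the largest rise and fall per comparison, Myod1, Myog, Nkx2-5, Myh6 and Afp, and the 5 genes most like Tnnt2 and Tnnt3, of which 1 is not reported here; Prr33, Acta2, Actb, Myf5, Myf6 and Chrnd were named after their values were seen. Alternatives were RLE factors, DESeq2 1.42.0, no filter, 1 fit over all 12 libraries, adjusted p only, scaling to cardiomyocyte genes, a replicate block, leaving out each library, a pseudocount of 1 and counts plus 0.5 for ratios. Leaving out both HO libraries with skeletal muscle genes was added after seeing the data. Other libraries of the study were not analysed here.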

Additional observations from a re-analysis of the deposited data

Results flagged for a closer look

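Tnni3 and Tpm1 were each higher in every atrial than in every ventricular library of E11.5H and lower in every atrium-like than in every ventricle-like library. How many of all genes did so was not counted. For Tnni3 the log2 fold changes were 0.32 and -1.67, and for Tpm1 0.065 and -0.59. The difference between these was tested as the interaction of chamber and tissue and did not pass, with edgeR adjusted p = 0.294 for Tnni3 and 0.311 for Tpm1. The direction of Tpm1 in E11.5H rests on FPKM levels close to each other, 292.7 at the lowest in atria and 292.0 at the highest in ventricles. Its E11.5H difference was not called (edgeR adjusted p = 0.609), and its log2 fold change was -0.0063 without atria replicate 1. Set level on the cardiomyocyte genes, Tpm1 had 0.37 between E11.5H chambers and 1.05 between HO parts, so its directions no longer differed. On that scale Tnni3 had 0.63 and -0.17.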

How the results depend on the processing

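Of 898 values recomputed for 73 results, 830 were labelled the same and 38 reversed, 19 of these under scaling to cardiomyocyte genes. A fold change was labelled the same when its sign and call held, and a ratio when its sign held. A count of members called was labelled by its size alone, whichever the members or their direction. Under the cardiomyocyte scaling, 6 lower became 4 higher in atrium-like parts and 5 lower became 5 higher in ventricle-like parts, both labelled the same. That scaling gave 0.18 for Tnnt2 and 0.00025 for Actc1 between E11.5H chambers; 0.091, 0.73, 0.069 and 1.05 for Tnnt1, Tnnt3, Tnnc1 and Tpm1 between HO parts; 2.57, 0.42, 1.82, 0.85, 2.74 and 3.23 for Tnnt1, Tnnt2, Tnnt3, Tnni3, Tpm1 and Acta1 in atrium-like parts against atria; 2.18, 0.71, 1.66, 2.07 and 1.07 for Tnnt1, Tnnt2, Tnni3, Tpm1 and Acta1 in ventricle-like parts against ventricles; and 0.39 and 0.68 for Tnnt1 and Tpm1 in the interaction. It called 14323 genes in atrium-like parts (3821 otherwise), 13613 in ventricle-like parts (2859 otherwise) and 1291 between HO parts (0 otherwise).

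Between E11.5H chambers 0 members and 30 genes were called with all 12 libraries in 1 fit, since the HO libraries then enter the spread, in place of 1 and 712, and 5 members and 1982 genes with the adjusted p only. In the interaction 1 member was called by DESeq2 (444 genes in place of 25), and 3 with both HO libraries of skeletal muscle genes left out, an alternative chosen after seeing the data that called 276 of 16669 genes (1.66%): Tnnt3 (-4.24, edgeR adjusted p = 0.0104), Tnnc1 (-2.20, 0.0367) and Actc1 (-2.54, 0.0331). Tnnc2 in atrium-like parts against atria was -2.97 there.

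With each library left out in turn, members called ran from 1 to 2 between E11.5H chambers (Tnnc2 was added without atria replicate 1), 0 to 1 in the interaction, 6 to 8 in atrium-like parts and 4 to 6 in ventricle-like parts. All genes called ran from 538 of 14863 to 765 of 14903 between E11.5H chambers and from 2 of 17022 to 216 of 16954 in the interaction. They ran from 1662 of 16060 to 5495 of 15823 in atrium-like parts and from 1116 of 15954 to 3725 of 15606 in ventricle-like parts. In each of these the fit with the most members called also called the most genes. Log2 fold changes ran from -0.0063 to 0.11 for Tpm1 between E11.5H chambers, from -2.36 to 1.38 for Tnnt3 and -6.80 to 4.74 for Tnnc2 between HO parts, and from -2.97 to 5.03 for Tnnc2 in atrium-like parts against atria. Between HO parts the log2 ratios ran from -0.60 to 0.20 for Tnnt2 over Tnnt1, -0.28 to 0.30 for Tnni3 over Tnni1 and -2.97 to 1.23 for Tnnc1 over Tnnc2, and for Tnnt2 over Tnnt3 in atrium-like parts against atria from -1.49 to 0.44.

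The sources do not say whether same-numbered libraries are paired. Their deviations correlated at 0.024 to 0.064 between E11.5H chambers and 0.038 to 0.624 between HO parts, where other numbers gave -0.699 to 0.466 and atrium-like replicate 1 correlated best with ventricle-like replicate 3. Whether the HO parts are paired is not known. A replicate block left the members called at 1, 0, 6, 5 and 0 (E11.5H chambers, HO parts, atrium-like, ventricle-like, interaction). In the same order all genes called were 621 in place of 712, 0 as before, 2806 in place of 3821, 2003 in place of 2859 and 5 in place of 25. The block turned Tnnc2 to -1.08 between HO parts and -0.16 in atrium-like parts against atria. The spread between HO libraries limits what their comparison can show.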

Other observations

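Other cell type lists were measured beside the members. Of all 14536 genes tested edgeR called 425 higher and 287 lower in atria than ventricles. In atrium-like parts against atria it called 2462 of 15418 higher and 1359 lower. In ventricle-like parts against ventricles it called 1749 of 15094 higher and 1110 lower. Smooth muscle genes (10) summed to 1154 to 1597 FPKM in hearts, 131 to 591 in the atrium-like parts and 252 to 760 in the ventricle-like ones, and edgeR called 3 of them higher and 0 lower in atria than ventricles, 1 higher and 4 lower in atrium-like parts than atria, and 3 higher and 4 lower in ventricle-like parts than ventricles. Acta2, Actg2 and Lmod1 stand both in this list and among the thin filament genes (Acta2 at -2.87 and -1.99 in HOs against hearts). Endothelial genes (10) summed to 168 to 203 FPKM in E11.5H and 13.1 to 75.0 in HOs, with 2 and 4 called lower in the HO parts. Fibroblast and mesenchyme genes (10) had 3 called higher in each HO part, and 1 lower in atrium-like parts. Erythroid genes (8) summed to 7305 to 72047 FPKM in E11.5H and 2.56 to 26.9 in HOs, all 8 called lower in both HO parts and 4 lower in atria than ventricles. Endoderm genes (12) were called higher in HOs for 12 of 12 in atrium-like and 7 of 9 in ventricle-like parts. Cardiomyocyte genes (12) were called lower for 11 in each part. Of the skeletal muscle genes 1 was called higher and 1 lower in atria, and 1 higher in ventricle-like parts. Between HO parts 0 genes of any list were called by edgeR, as were 0% of all genes. At an unadjusted edgeR p under 0.05 there were 6 cardiomyocyte, 3 smooth muscle and 1 fibroblast gene, against 5.66% of all genes. DESeq2 called 2 cardiomyocyte genes, against 0.357% of all genes. Set level on the cardiomyocyte genes, smooth muscle genes called higher and lower were 5 and 1 in atrium-like and 6 and 0 in ventricle-like parts, endothelial genes 4 and 0, and 1 and 0, and fibroblast genes 10 and 0, and 8 and 0, where 92.3% and 89.7% of all genes were called higher. Myh6, the atrial myosin heavy chain, had 1328 to 1589 FPKM in atria, 445 to 504 in ventricles, 28.8 to 98.3 in the atrium-like parts and 117 to 417 in the ventricle-like ones.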
